A study of Mus musculus with 77 samples.

Results

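The trefoil factor genes of the mouse are Tff1, Tff2 and Tff3, and these 3 of the 46078 genes in the deposited count table are described here over 7 groups of pancreatic ductal organoid cells and over single pools of 50 sorted cells. Tff3 was chosen by its read counts, as one of the genes most consistently higher in Ngn3 than in control cells at both time points, so its levels and differences are given as a description with no test. Tff1 and Tff2 belong to the set because they complete the gene family. All cells came from ductal organoids of C57BL/6 mice that were infected with a Tet-on lentivirus and sorted into pools. At 2 days after induction the groups were GFP only, GFP with HA-tagged WT Ngn3, and GFP with HA-tagged 6S-A Ngn3, in which each of the SP sites of the protein is changed to alanine-proline. At 8 days the groups were WT Ngn3, 6S-A Ngn3 and, as controls, cells without colour sorted from the WT and from the 6S-A organoids (no-color WT and no-color 6S-A), so the control at 8 days was not a GFP-only culture. Each group had 3 biological replicates, all of organoid passage 2 except replicate 3 at 8 days, which was of passage 5. In pools of cells, fewer cells of a type and less RNA per cell cannot be told apart.

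Trefoil factors are small secreted peptides of mucous epithelia. They carry a compact domain held together by cysteine bridges, are released together with mucins, and are known for protecting and repairing the epithelial surface. In the gut, Tff1 and Tff2 are best known from the mucous cells of the stomach, and Tff3 from the goblet cells of the intestine. Ngn3, encoded by Neurog3, is the basic helix-loop-helix transcription factor that commits pancreatic progenitors to the endocrine lineage.

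The genes lie side by side on the minus strand of mouse chromosome 17 (GRCm38, GENCODE M21), in the order Tff3 (ENSMUSG00000024029, 31125306 to 31129646), Tff2 (ENSMUSG00000024028, 31141049 to 31144282) and Tff1 (ENSMUSG00000024032, 31161395 to 31165277). The cluster spans 39972 bases, with gaps of 11402 and 17112 bases between neighbouring genes. The exons that encode the trefoil domains are printed because they show what the members share and how well reads can tell them apart. Each was taken from the GENCODE M21 transcript of its gene and is written 5′ to 3′ as transcribed, with the cysteine codons in capitals.
Tff1 exon 2 (chr17:31162655-31162807, minus strand): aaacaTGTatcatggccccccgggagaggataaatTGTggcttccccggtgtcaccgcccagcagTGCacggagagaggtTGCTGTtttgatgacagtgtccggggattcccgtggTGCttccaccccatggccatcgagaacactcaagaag
Tff2 exon 2 (chr17:31143114-31143263, minus strand): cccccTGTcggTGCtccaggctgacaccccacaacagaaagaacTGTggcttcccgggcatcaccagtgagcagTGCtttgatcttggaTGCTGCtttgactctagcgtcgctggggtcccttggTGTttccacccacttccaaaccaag
Tff2 exon 3 (chr17:31142202-31142348, minus strand): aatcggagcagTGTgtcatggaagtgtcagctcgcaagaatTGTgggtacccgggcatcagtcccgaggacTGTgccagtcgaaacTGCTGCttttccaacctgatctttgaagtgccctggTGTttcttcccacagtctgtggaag
Tff3 exon 2 (chr17:31127365-31127511, minus strand): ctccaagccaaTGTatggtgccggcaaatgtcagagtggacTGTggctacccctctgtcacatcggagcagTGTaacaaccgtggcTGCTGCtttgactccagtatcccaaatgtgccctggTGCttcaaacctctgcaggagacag
The exons of Tff1 and Tff3 and exon 3 of Tff2 each hold 6 cysteine codons with identical spacing, and exon 2 of Tff2 holds 7. Over the 114 bases from the first to the last of those 6 codons, 70 were identical between Tff1 and Tff3 (61.4%), 63 between Tff2 exon 3 and Tff3 (55.3%) and 61 between Tff1 and Tff2 exon 3 (53.5%). Tff2 has 2 such domain exons and an open reading frame of 129 codons, against 87 codons for Tff1 and 81 for Tff3. The reads were 50 bases long, and the closest pair of 50-base windows from 2 different members still differed at 14 bases (Tff1 with Tff2, and Tff2 with Tff3) or at 15 bases (Tff1 with Tff3). The longest run that 2 members shared was 14 bases, so at this read length the members are not near-identical copies.

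Of the 77 libraries, 76 passed the study's limits, and technical repeats of a biological replicate were summed. The summed replicates held 17757303 to 26627347 reads on genes at 2 days and 2397470 to 17919627 at 8 days. Levels are reads of a gene per 1000000 reads on genes after TMM scaling (CPM), and a count of 3 reads, equal to 0.109 to 1.73 CPM depending on the replicate, was taken as the limit of detection. Errors and limits derived from counts cover counting error only, because the reads carry no molecular identifiers. All 13 ductal markers were above the limit in each group, with summed levels of 17324 to 19236 CPM in GFP only, 12078 to 12730 CPM in WT Ngn3 and 10538 to 11004 CPM in 6S-A Ngn3 at 2 days. The 17 endocrine markers summed to 1.06 to 2.97 CPM in GFP only, 240.2 to 1026 CPM in WT Ngn3 and 793 to 1679 CPM in 6S-A Ngn3, and Ins1 and Ins2 were at or below the limit in every group. Summed acinar markers reached at most 20.8 CPM in any replicate, immune markers 15.96 CPM and mesenchymal and endothelial markers 12.8 CPM, and Cpa1, Amy2a5, Pnlip, Ptf1a, Adgre1 and Cd3e were at or below the limit. Tuft cell markers, most of them Dclk1, summed to 19.7 to 116 CPM. One library stood apart by its short genes: reads on genes with under 1000 exonic bases made up 10.9% of no-color WT replicate 3, a single library, against 1.94% to 4.77% in the other replicates of 8 days.

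Neurog3 was high in the cells labelled as Ngn3 and near the limit elsewhere. At 2 days its levels were 205, 89.4 and 104 CPM in WT Ngn3 and 198, 117 and 99.8 CPM in 6S-A Ngn3, against 0.0726, 0.0382 and 0.0461 CPM in GFP only. At 8 days they were 6.89, 46.4 and 14.3 CPM in WT Ngn3 and 9.86, 12.8 and 15.4 CPM in 6S-A Ngn3, and no no-color replicate exceeded 0.991 CPM. These reads do not separate the transgene from the cell's own gene, and Neurog3 overlaps Fam241b, so reads in the overlap can be lost as ambiguous.

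Tff3, the intestinal trefoil factor, was high in Ngn3 cells at 2 days and almost without reads in control cells. In WT Ngn3 cells the 3 replicates held 5784, 2679 and 5081 reads of Tff3, or 228.5, 140.0 and 249.6 CPM (206 ± 58.2 CPM, SD, n = 3). In 6S-A Ngn3 cells they held 5150, 3589 and 5472 reads, or 235.6, 186.5 and 242.4 CPM (221 ± 30.5 CPM, SD, n = 3). The GFP-only replicates held 7, 7 and 2 reads, or 0.254, 0.268 and 0.0921 CPM (0.205 ± 0.0976 CPM, SD, n = 3). No Ngn3 replicate came near the GFP-only replicates, and the lowest of them, WT Ngn3 replicate 2, was still at 140.0 CPM. Summed over replicates and scaled for depth, the ratio of Tff3 reads to GFP only was 985 in WT Ngn3 (95% counting interval 607 to 1724) and 1052 in 6S-A Ngn3 (648 to 1841). Per kilobase of exon, Tff3 stood at 418 ± 118 CPM in WT Ngn3 and 449 ± 61.8 CPM in 6S-A Ngn3 (SD, n = 3), which placed it 60th of 27336 and 51st of 27838 genes with reads. In GFP only, its place was 15485th. By CPM without division by length, its places were 645th, 578th and 18148th.

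At 8 days Tff3 was still read in every Ngn3 replicate, at lower and more uneven levels, and was essentially without reads in the no-color cells. WT Ngn3 replicates held 66, 215 and 210 reads, or 6.14, 69.2 and 41.8 CPM (39.0 ± 31.6 CPM, SD, n = 3). 6S-A Ngn3 replicates held 292, 631 and 278 reads, or 17.7, 74.1 and 42.9 CPM (44.9 ± 28.3 CPM, SD, n = 3). In both proteins replicate 2 was highest and replicate 1 lowest. Replicate 1 also had the lowest share of reads on genes with under 1000 exonic bases, 3.22% against 4.35% and 4.15% in WT Ngn3 and 1.94% against 3.81% and 4.77% in 6S-A Ngn3, and the part of this share in the level of Tff3, a gene of 493 exonic bases, was not tested. No-color WT replicates held 0 reads each, which allows up to 0.196, 0.328 and 1.73 CPM, and no-color 6S-A replicates held 1, 0 and 1 reads. Against the 2 reads of all no-color cells, the ratio of summed reads was 803 in WT Ngn3 (95% counting interval 221 to 6645) and 1176 in 6S-A Ngn3 (325 to 9719). With single replicates left out, the ratio ran from 540 to 1612 in WT and from 764 to 2043 in 6S-A Ngn3. Against its own no-color group alone the 6S-A ratio was 677, and the own no-color group of WT Ngn3 held 0 reads, so no ratio can be given. GFP-only cells at 2 days, with 16 reads in all, held 6.54 times the scaled reads of the no-color cells (1.54 to 58.7). Per kilobase, Tff3 stood at 79.2 ± 64.2 CPM in WT Ngn3 and 91.1 ± 57.4 CPM in 6S-A Ngn3 (SD, n = 3), and was the 576th and 518th gene in order of level per kilobase, and by CPM the 5278th and 4833rd.

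**Figure D1:**
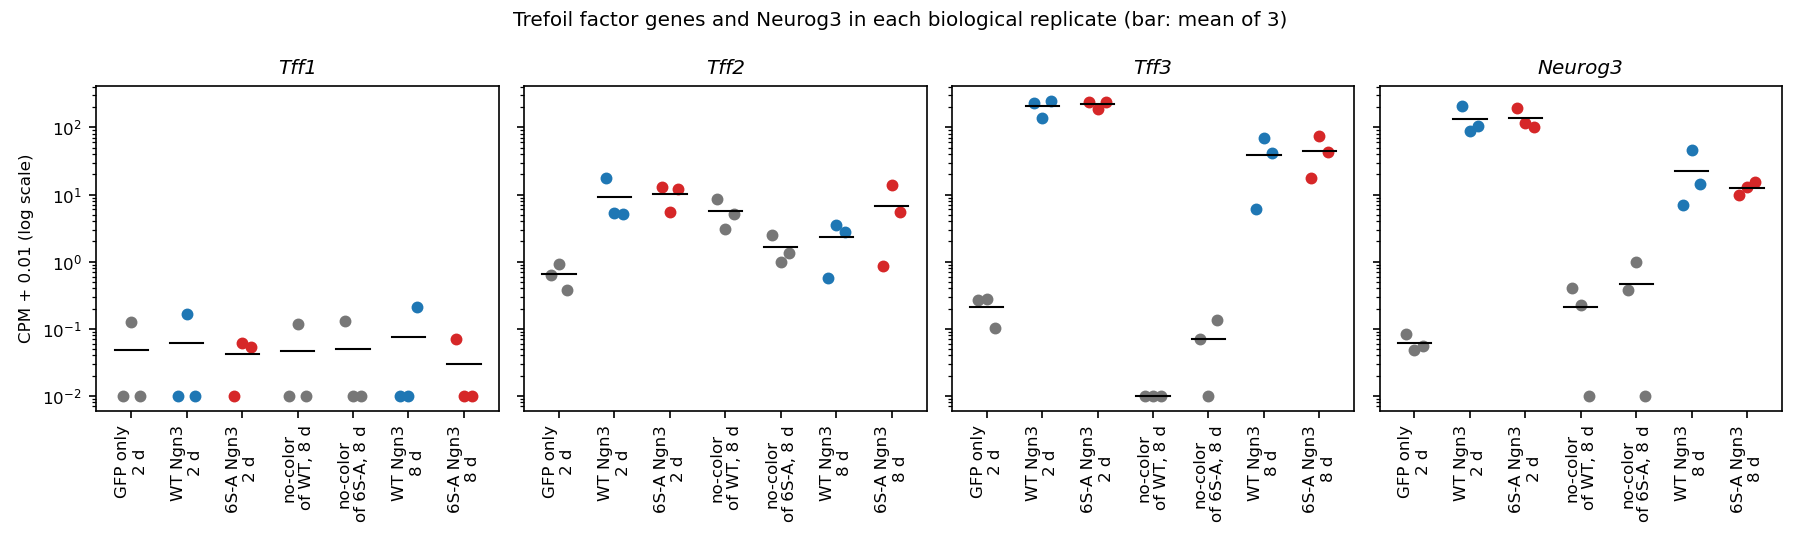
Level of Tff1, Tff2, Tff3 and Neurog3 in CPM plus 0.01 on a log axis, by group. Each point is 1 biological replicate and each bar the mean of 3. Tff3 in Ngn3 cells sits between 6.14 and 249.6 CPM and in control cells at or below 0.268 CPM, while Tff2 spans 0.369 to 17.5 CPM and Tff1 is at the bottom of every panel.

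In the order of mean levels, Tff3 ran from 6S-A Ngn3 at 2 days (221 CPM) to WT Ngn3 at 2 days (206 CPM), then 6S-A Ngn3 at 8 days (44.9 CPM) and WT Ngn3 at 8 days (39.0 CPM), and last GFP only (0.205 CPM) and both no-color groups. The replicates of WT and 6S-A Ngn3 overlapped at each time point. The 2-day and 8-day Ngn3 groups did not overlap, nor did the 8-day Ngn3 groups and GFP only, whereas GFP only and no-color 6S-A overlapped.

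The main question of the design is whether the phosphomutant protein acts on its targets differently from WT Ngn3, and the replicates of both proteins overlapped in Tff3. At 2 days the log2 fold change of 6S-A over WT Ngn3 was 0.09 (SE 0.19), with a range of 2 SE from -0.29 to 0.48. At 8 days it was 0.20 (SE 0.72), with a range from -1.23 to 1.64, so a difference of over 2-fold either way lay within the range. Leaving out single replicates gave -0.12 to 0.26 at 2 days and -0.38 to 0.90 at 8 days. The change of this difference between the time points was 0.12 (SE 0.80, range -1.48 to 1.71).

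Between 2 and 8 days the mean of Tff3 was lower in the Ngn3 cells, by -2.42 on the log2 scale in WT Ngn3 (SE 0.60) and by -2.31 in 6S-A Ngn3 (SE 0.59), and no 8-day replicate reached the lowest 2-day replicate. Leaving out single replicates gave -3.13 to -1.89 for WT and -2.87 to -1.92 for 6S-A Ngn3. The sources do not say whether the time points came from the same cultures, and replicate 3 differed in passage between them. Neurog3 itself differed by -2.60 in WT Ngn3 (edgeR quasi-likelihood test, Benjamini-Hochberg adjusted p = 0.0767) and fell by 3.45 in 6S-A Ngn3 (edgeR adjusted p = 0.0112), in comparisons in which 0.168% and 0.562% of genes were called. The level of Tff3 relative to Neurog3 was 1.11, 1.56 and 2.39 in the WT replicates and 1.19, 1.60 and 2.43 in the 6S-A replicates of 2 days, and 0.892, 1.49 and 2.92 and 1.79, 5.79 and 2.78 at 8 days. These ratios of CPM overlapped between proteins and between time points.

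Single pools show how evenly Tff3 was present. All 18 WT Ngn3 pools and all 18 6S-A Ngn3 pools of 2 days held Tff3 reads, with 143 to 1947 reads per WT pool and 125 to 2134 per 6S-A pool. Levels ran from 59.0 to 393 CPM in WT Ngn3 (median 187 CPM, coefficient of variation 54.7%) and from 61.0 to 450 CPM in 6S-A Ngn3 (median 227 CPM, 55.1%), a range of 6.67-fold and 7.37-fold. The spread lay within replicates as much as between them, since WT replicates 1, 2 and 3 spanned 108 to 356, 59.0 to 249 and 80.6 to 393 CPM, and 6S-A replicates 99.3 to 384, 64.4 to 450 and 61.0 to 404 CPM. In GFP only, 10 of 18 pools held any Tff3 read (55.6%), and none held more than 3. The technical repeats 2 and 3 of replicates 2 and 3 in each 2-day group lay much closer to each other than other repeats, so these pools are not 18 independent draws.

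**Figure D2:**
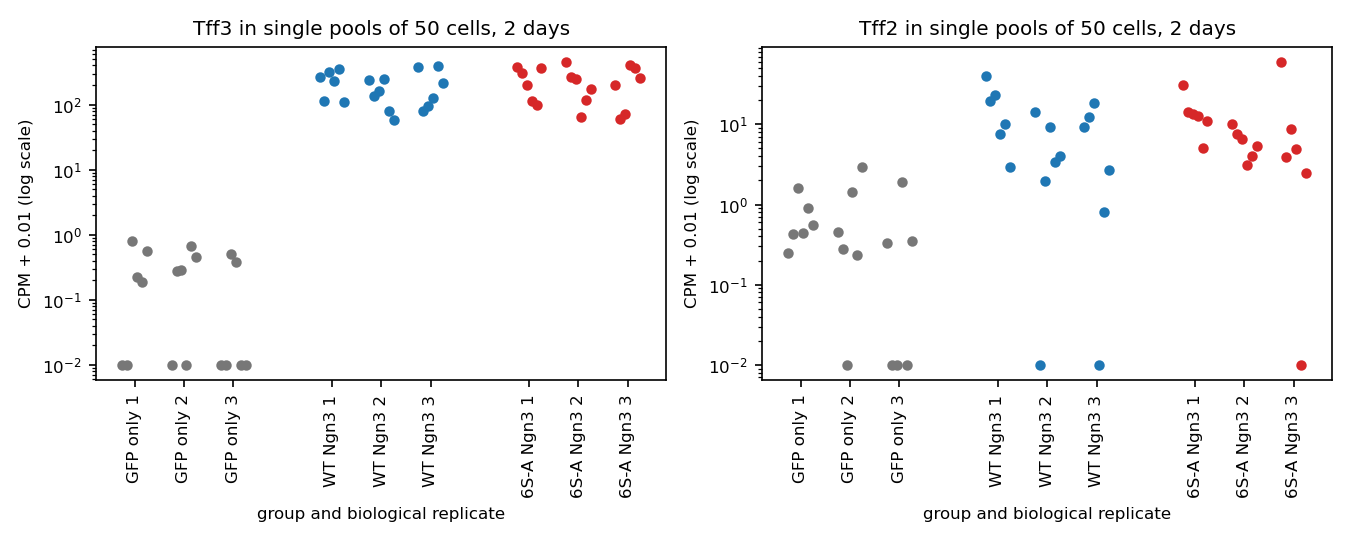
Tff3 (left) and Tff2 (right) in each pool of 50 cells at 2 days, in CPM plus 0.01 on log axes, by group and biological replicate. Every Ngn3 pool lies at or above 59.0 CPM for Tff3 and every GFP-only pool below 1 CPM, while Tff2 ranges from 0 to 59.7 CPM in the Ngn3 pools.

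At 8 days the pools were more uneven. The 4 retained WT Ngn3 pools stood at 11.9 and 0.384 CPM (replicate 1), 72.7 CPM (replicate 2) and 44.3 CPM (replicate 3) of Tff3. The pool at 0.384 CPM held 2 Tff3 reads beside 27 reads of Neurog3. The 6 pools of 6S-A Ngn3 stood at 22.1, 6.71 and 22.2 CPM (replicate 1), 141 and 21.8 CPM (replicate 2) and 46.1 CPM (replicate 3). The highest, with 535 reads, also had the highest Insm1 level among the 8-day pools (73.7 CPM), with Neurog3 at 15.9 CPM. With 1 to 3 pools per replicate, the 8-day means of Tff3 rest on few pools each.

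Tff2, the member with a pair of trefoil domains, rose with both proteins at 2 days from a low level. The GFP-only replicates held 17, 24 and 8 reads, or 0.617, 0.917 and 0.369 CPM (0.634 ± 0.275 CPM, SD, n = 3). WT Ngn3 replicates held 444, 101 and 103 reads, or 17.5, 5.28 and 5.06 CPM (9.29 ± 7.14 CPM), and 6S-A Ngn3 replicates held 286, 104 and 277 reads, or 13.1, 5.40 and 12.3 CPM (10.3 ± 4.22 CPM). All 6 Ngn3 replicates lay above all 3 GFP-only replicates, and WT replicate 1 stood well above the other WT replicates. The log2 fold change against GFP only was 3.86 in WT Ngn3 (SE 0.59, 14.5-fold, edgeR quasi-likelihood test, Benjamini-Hochberg adjusted p = 8.99e-04) and 3.99 in 6S-A Ngn3 (SE 0.59, 15.9-fold, edgeR adjusted p = 4.53e-04). In these comparisons 6.56% and 9.43% of all genes were called higher, and Tff2 was 665th and 735th of 23844 genes by size of change. Without WT replicate 1 the WT value was 2.99, and with the first technical repeat alone the values were 5.84 and 6.50. The adjusted p ran from 6.01e-16 to 0.00956 for WT and from 1.09e-19 to 0.00523 for 6S-A over the alternatives. The difference between 6S-A and WT Ngn3 was 0.13 (SE 0.49, edgeR adjusted p = 1, range of 2 SE -0.85 to 1.11), and it ran from -0.16 to 0.98 when single replicates were left out. In that comparison 0.0126% of genes were called, with 1380 at an unadjusted p under 0.05, 97 called by DESeq2 and 100 without a filter on low counts.

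At 8 days no difference of Tff2 with Ngn3 passed the test. No-color WT replicates stood at 8.64, 3.06 and 5.20 CPM (5.63 ± 2.81 CPM) and no-color 6S-A replicates at 2.51, 0.991 and 1.36 CPM (1.62 ± 0.791 CPM). WT Ngn3 replicates stood at 0.558, 3.54 and 2.79 CPM (2.30 ± 1.55 CPM, from 6, 11 and 14 reads) and 6S-A Ngn3 replicates at 0.847, 14.0 and 5.56 CPM (6.80 ± 6.66 CPM, from 14, 119 and 36 reads). Each Ngn3 group overlapped with both no-color groups, the no-color groups did not overlap with each other, and the 6S-A Ngn3 mean rested on replicate 2. Against the no-color cells, the log2 fold change was -0.43 for WT Ngn3 (SE 0.90, edgeR adjusted p = 0.918, range -2.23 to 1.36) and 1.16 for 6S-A Ngn3 (SE 0.82, edgeR adjusted p = 0.649, range -0.49 to 2.80). Without replicate 2 of 6S-A Ngn3 the second value was 0.04. Against its own no-color group alone, the value was -1.31 for WT Ngn3 (SE 1.02, edgeR adjusted p = 0.671) and 2.04 for 6S-A Ngn3 (SE 1.02, edgeR adjusted p = 0.579). The shares of all genes called were 0.741% higher and 0.173% lower in WT Ngn3, and 1.37% higher and 0.34% lower in 6S-A Ngn3. The difference of 6S-A over WT Ngn3 was 1.59 (SE 1.02, edgeR adjusted p = 1, range -0.45 to 3.63), and 0.46 without replicate 2 of 6S-A Ngn3, with 0% of genes called, 415 at an unadjusted p under 0.05, 0 called by DESeq2 and 8 without a filter on low counts. Between the no-color groups it was -1.76 (SE 1.01, edgeR adjusted p = 0.669, range -3.79 to 0.27). In the latter comparison 0% of genes were called, with 1649 at an unadjusted p under 0.05, 8 called by DESeq2 and 352 called without a filter on low counts. The no-color WT mean includes the single library with the unusual share of short genes, and its Tff2 level of 5.20 CPM lay between those of the other replicates.

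Tff2 was also compared between the time points. The no-color cells of 8 days exceeded the GFP-only cells of 2 days in Tff2 by 2.25 on the log2 scale (SE 0.79, edgeR adjusted p = 0.166), a comparison in which 1.35% of genes were called, and this difference passed in DESeq2 (adjusted p = 0.0288) and without the filter on low counts (edgeR adjusted p = 0.0438), with a range of adjusted p from 0.0288 to 0.550 over all alternatives. All 6 no-color replicates lay above all 3 GFP-only replicates, in a comparison with 2907 of 19589 genes at an unadjusted edgeR p under 0.05. Day and kind of control cell differed together here, so they cannot be told apart. In the Ngn3 cells the change from 2 to 8 days was -2.09 for WT (SE 0.86, edgeR adjusted p = 0.498) and -0.60 for 6S-A (SE 0.79, edgeR adjusted p = 0.8287). The WT value was -1.23 without WT Ngn3 replicate 1 of 2 days and -3.02 with the first technical repeat alone, and the 6S-A value ran from -1.71 without 6S-A Ngn3 replicate 2 of 8 days to -0.0688 without replicate 1 of 8 days, and was -2.21 with the first technical repeat alone. The difference of this change between the proteins was 1.49 (SE 1.15, edgeR adjusted p = 1, range -0.81 to 3.796), with 0% of genes called for this interaction, 445 at an unadjusted p under 0.05, 4 called by DESeq2 and 26 without a filter on low counts. With single replicates left out, this difference ran from 0.37 to 2.02. In the order of mean levels of Tff2, GFP only was the single group whose replicates did not overlap with those of the next group.

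In single pools of 2 days, Tff2 was read in 16 of 18 WT Ngn3 pools and 17 of 18 6S-A Ngn3 pools, and also in 14 of 18 GFP-only pools. The 6S-A pools ran from 0 to 59.7 CPM and the WT pools from 0 to 40.0 CPM, against at most 2.89 CPM in GFP only. The coefficient of variation over pools was 103% in WT and 123% in 6S-A Ngn3, above the values for Tff3. The median pool held 24.5 (WT) and 19 (6S-A) reads of Tff2, against 576.5 and 782.5 of Tff3. The part of counting error in these values was not tested. At 8 days the pools of no-color 6S-A replicate 1 held 1.77, 5.95 and 1.33 CPM of Tff2 (10, 22 and 9 reads), and those of no-color WT replicate 1 held 1.77, 10.6 and 17.1 CPM.

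Set side by side per kilobase, Tff3 exceeded Tff2 in every Ngn3 replicate and stayed below it in every control replicate. In WT Ngn3 at 2 days the ratio of Tff3 to Tff2 per length was 15.4, 31.4 and 58.4, and in 6S-A Ngn3 it was 21.3, 40.9 and 23.4. At 8 days it was 13.0, 23.2 and 17.8 in WT Ngn3 and 24.7, 6.28 and 9.15 in 6S-A Ngn3. In GFP only it was 0.488, 0.346 and 0.296, and in the no-color replicates it ranged from 0 to 0.108. Tff3 was chosen as higher in Ngn3 than in control cells, so its choice enters this turn of the ratio. The no-color ratios rest on at most 1 Tff3 read per replicate.

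Tff1 was not detected in any group. Over 76 pools it had 13 reads, spread over 8 pools, with at most 3 reads in a replicate. Group totals were 3 reads in GFP only, 3 in WT Ngn3 and 2 in 6S-A Ngn3 at 2 days, and 1 in no-color WT, 2 in no-color 6S-A, 1 in WT Ngn3 and 1 in 6S-A Ngn3 at 8 days. It therefore entered no test. The gene overlaps Gm15318 on the opposite strand, which held 211 reads, and the strand setting of the counting is not given in the sources used here, so reads from the overlap could be assigned to either gene or to none.

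The genes whose levels were most like those of Tff3 over the 21 biological replicates were led by Insm1, Nptx2 and Neurog3, and Tff2 was not near them. By the Pearson correlation of log2(CPM + 1), the first 10 of 19588 genes were Insm1 (0.981), Nptx2 (0.979), Neurog3 (0.979), Cst6 (0.972), Efna3 (0.971), Nptx1 (0.970), Dpysl3 (0.964), Nkx2-2 (0.963), Hes6 (0.962) and Cnot6l (0.962). Insm1 and Nkx2-2 encode transcription factors of endocrine differentiation, Nptx1 and Nptx2 are neuronal pentraxins, and Hes6 is an inhibitor of Hes1. Mean levels of Insm1 were 0.194 CPM in GFP only, 116 and 147 CPM in WT and 6S-A Ngn3 at 2 days, and 18.8 and 32.7 CPM at 8 days. Tff2 took place 978 with a correlation of 0.646. These values describe 21 points that fall into groups with and without Ngn3 and share libraries and scaling, and the choice of Tff3 for this very pattern enters them.

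Sst, the somatostatin gene, did not follow the same order over replicates. Its levels were 0.277, 0.209 and 14.9 CPM in WT Ngn3 and 166, 435 and 85.3 CPM in 6S-A Ngn3 at 2 days, when Tff3 stood at 140.0 to 249.6 CPM in all 6 replicates. At 8 days WT Ngn3 replicates held 1607, 8.69 and 4.38 CPM of Sst, with the highest Sst in the replicate that was lowest for Tff3. In 6S-A Ngn3 they held 1587, 1507 and 2.47 CPM.

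Across pools of one replicate the picture was different. After subtraction of replicate means, Tff3 and Neurog3 correlated at 0.146 over the 18 WT pools and -0.19 over the 18 6S-A pools, and Tff3 and Tff2 at 0.0681 and 0.0952. With a pseudocount of 0.1 or with 1 of each close pair of repeats, the latter pair ran from 0.0727 to 0.211 in WT and from -0.0297 to 0.158 in 6S-A Ngn3. Tff2 and Neurog3 correlated at 0.294 and -0.43. Of 9474 genes with a median of at least 10 CPM, those most like Tff3 over the 36 pools were 2410015M20Rik (0.722), Timp1 (0.692), Plgrkt (0.678), Smim8 (0.677) and Cox6c2 (0.665), and Neurog3 stood at place 5080. Along this order the median exonic length rose from 2247 bases in the first of 10 equal bins, that of the genes most like Tff3, to 7017 bases in the last, against 4612 bases over all compared genes, and the rank correlation of length with likeness was -0.461 over 9451 genes. Tff3 itself has 493 exonic bases. The share of reads on genes under 1000 bases ran from 3.71% to 5.46% over WT pools and from 2.91% to 5.52% over 6S-A pools, and its correlation with Tff3 was 0.0223 and 0.325. With Tff2 it was 0.224 and 0.512, and with Neurog3 -0.20 and -0.52. The part of this share in the negative value of Tff2 and Neurog3 in the 6S-A pools was not tested. Pools share depth, replicate and library preparation, so these correlations are given without a p-value, and the part of gene length in the level of Tff3 was not tested.

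**Figure D3:**
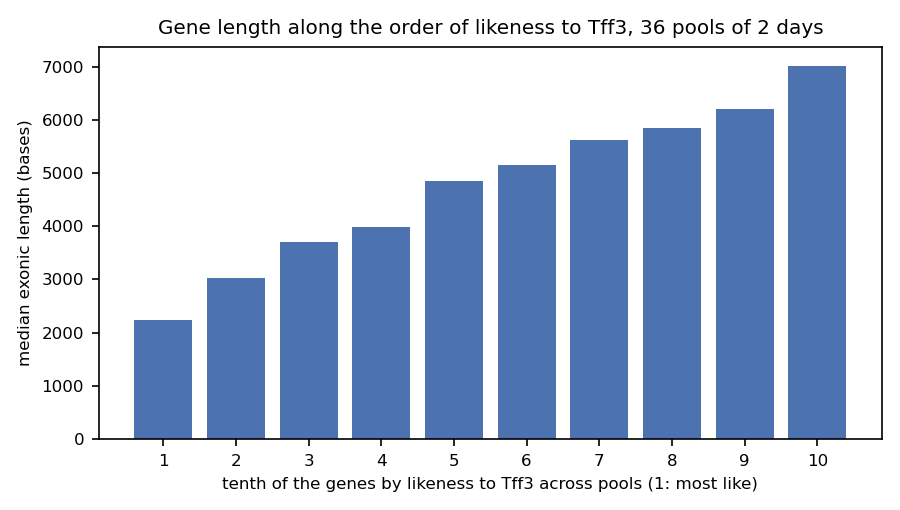
Median exonic length in bases (vertical axis, from 0) of the genes compared with Tff3 across the 36 Ngn3 pools of 2 days, in 10 equal bins of the order of likeness (horizontal axis, 1 most like). The bars rise from 2247 to 7017 bases.

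The genes around the cluster were read to see whether the rise was limited to the trefoil genes. Of the 14 protein-coding genes between Umodl1 and Cbs, the 11 that are not trefoil genes reached from 114.6 kb on the side of Tff3 to 443.6 kb on the side of Tff1. At 2 days 4 of the 9 tested rose with each protein and none fell, where 6.56% and 9.43% of all genes were called higher and 5.23% and 8.62% lower. The window is unequal on its sides and ends at Cbs, itself a called gene, so counts of calls in it do not measure the region. Abcg1, a sterol exporter that lies 7.32 kb from Tff3, stood at 36.8 ± 4.87 CPM in GFP only, 142 ± 18.1 CPM in WT Ngn3 and 173 ± 32.7 CPM in 6S-A Ngn3 (SD, n = 3). Its log2 fold changes were 1.95 (SE 0.16, edgeR adjusted p = 3.38e-06) and 2.22 (SE 0.16, edgeR adjusted p = 6.62e-07). Cbs, the enzyme of cystathionine synthesis at the far end, stood at 19.6 ± 2.83, 134 ± 18.6 and 155 ± 28.8 CPM, with changes of 2.77 (SE 0.17, edgeR adjusted p = 2.23e-07) and 2.98 (SE 0.17, edgeR adjusted p = 7.71e-08). Pde9a, a phosphodiesterase of cyclic GMP, rose by 2.41 and 2.79 from 3.11 CPM, and Slc37a1, a sugar phosphate transporter, by 1.43 and 1.79 from 12.6 CPM. With the first technical repeat alone, Slc37a1 no longer passed in WT Ngn3 (edgeR adjusted p = 0.0732).

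Between and beside these genes lay others that did not pass. Wdr4 stood at 35.3, 33.5 and 32.6 CPM in GFP only, WT and 6S-A Ngn3, Ndufv3 at 87.7, 92.3 and 99.2 CPM, Pknox1 at 17.2, 17.6 and 18.1 CPM and Rsph1 at 4.48, 4.72 and 5.67 CPM. Tmprss3, the nearest gene on the Tff1 side at 14.0 kb, had 19 reads in all libraries and log2 fold changes of 1.97 (SE 1.49) and -0.56 (SE 1.74). Umodl1 had 0 reads and Ubash3a 6, so neither was tested. At 8 days 2 of 8 tested neighbours rose with each protein, Abcg1 by 2.07 and 2.32 and Cbs by 2.75 and 2.98, where 0.741% and 1.37% of all genes were called higher. The median log2 fold change of the neighbours tested at 2 days was 1.43 in WT and 0.34 in 6S-A Ngn3, against 0.0148 and 0.0176 over all genes, but without Tmprss3 it was 0.76 and 1.06, so the order of the proteins turned with that gene of few reads.

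**Figure D4:**
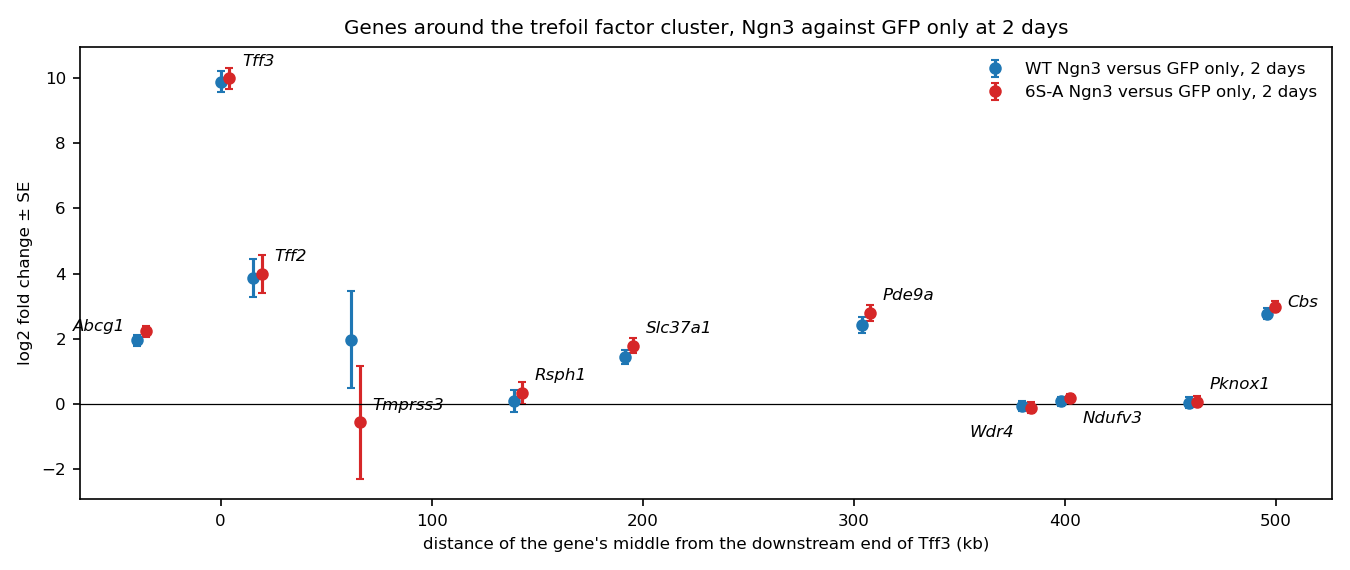
Log2 fold change of WT Ngn3 (blue) and 6S-A Ngn3 (red) over GFP only at 2 days for Tff3, Tff2 and the 9 tested neighbours, against the distance of each gene's middle from the downstream end of Tff3 in kb. Bars are the SE of the fit. Abcg1, Slc37a1, Pde9a and Cbs lie above 0 beside Tff2, while Rsph1, Wdr4, Ndufv3 and Pknox1 lie close to 0.

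Trefoil peptides are usually released with mucins. The most abundant listed mucin, Muc1 of the apical membrane, was lower in Ngn3 cells, while the gel-forming Muc2 and Muc5ac did not pass at 2 days. Of 10 listed mucins, 9 were in the table and 8 were tested at 2 days: 0 were called higher with either protein, and 2 fell with WT Ngn3 (Muc1 and Muc20) and 3 with 6S-A Ngn3 (Muc1, Muc4 and Muc20), where 6.56% and 9.43% of all genes were called higher, a share at which 0 of 8 is no result about the mucins, and 5.23% and 8.62% lower. Muc1, a mucin of the apical membrane, stood at 643 ± 138 CPM in GFP only, 207 ± 7.62 CPM in WT Ngn3 and 141 ± 20.7 CPM in 6S-A Ngn3 (SD, n = 3), and fell by 1.63 (SE 0.15, edgeR adjusted p = 7.98e-06) and by 2.19 (SE 0.15, edgeR adjusted p = 3.96e-07) on the log2 scale. Muc2, the gel-forming mucin of intestinal goblet cells, was at 1.91 ± 1.99, 1.00 ± 0.704 and 1.80 ± 1.64 CPM, and Muc5ac, that of the gastric surface, at no more than 0.324 CPM on average at 2 days. The median log2 fold change of the tested mucins was -0.90 in WT and -1.22 in 6S-A Ngn3. At 8 days 1 of 6 tested mucins fell with 6S-A Ngn3 (Muc1, by 1.53, edgeR adjusted p = 0.0198) and none passed with WT Ngn3, where 0.34% and 0.173% of all genes were called lower. The call of Muc1 was lost with passage 2 alone (edgeR adjusted p = 0.129), against the own no-color group alone (0.0665), and without 6S-A Ngn3 replicate 1 (0.0728) or 3 (0.0965) or no-color 6S-A replicate 1 (0.0512). With the first technical repeat alone, Muc20 no longer passed in WT Ngn3 (edgeR adjusted p = 0.273), and without a filter on low counts Muc4 no longer passed in 6S-A Ngn3 (edgeR adjusted p = 0.0505).

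Among 14 secretory genes of mucous and goblet cells, 10 were tested at 2 days and the same 2 rose with both proteins, where 6.56% and 9.43% of all genes were called higher. Gcnt3, which builds the branched cores of mucin sugars, went from 16.3 ± 5.83 CPM in GFP only to 155 ± 37.9 CPM in WT Ngn3 and 224 ± 44.4 CPM in 6S-A Ngn3 (SD, n = 3), a log2 fold change of 3.26 (SE 0.27, edgeR adjusted p = 1.61e-05) and 3.77 (SE 0.28, edgeR adjusted p = 3.37e-06). At 8 days it rose by 2.59 and 3.25 over the no-color cells, where 0.741% and 1.37% of all genes were called higher. Creb3l1, a transcription factor activated from the endoplasmic reticulum, rose from 19.2 CPM to 69.7 and 74.1 CPM at 2 days, by 1.87 and 1.95. At 8 days it passed with 6S-A Ngn3 (1.78, edgeR adjusted p = 0.00478), and without replicate 2 of that group it did not (edgeR adjusted p = 0.0533).

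The classical products of goblet cells were low or uneven. Agr2, a disulfide isomerase needed for mucin folding, stood at 3.02, 2.37 and 0.614 CPM in GFP only, WT and 6S-A Ngn3 at 2 days. Spink4 stood at 10.1 ± 9.30, 20.2 ± 19.8 and 9.76 ± 5.06 CPM, and Dmbt1 at 94.9 ± 95.6, 41.9 ± 34.5 and 17.8 ± 19.5 CPM, none of which passed. The no-color WT cells of 8 days held the most of both, 167 ± 146 CPM of Spink4 and 1317 ± 144 CPM of Dmbt1. Zg16 and Clca1 averaged at most 0.0783 CPM in any group. The median of the tested genes of this list was 0.0299 in WT and -0.25 in 6S-A Ngn3.

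Of the transcription factors of goblet and other gut epithelial cells, 12 of 13 were tested at 2 days. With WT Ngn3, 3 rose (Spdef, Foxa3 and Sox21), and with 6S-A Ngn3, 4 rose (the same and Foxa2) and 1 fell (Foxa1), where 6.56% and 9.43% of all genes were called higher and 8.62% lower with 6S-A Ngn3. Spdef, a factor of goblet cell maturation, went from 1.35 CPM to 5.47 CPM in WT Ngn3 and 4.15 CPM in 6S-A Ngn3, by 2.03 (SE 0.37, edgeR adjusted p = 0.00237) and 1.62 (SE 0.37, edgeR adjusted p = 0.00697), and with the first technical repeat alone neither passed (edgeR adjusted p = 0.167 and 0.721), nor did Sox21 in WT Ngn3 (edgeR adjusted p = 0.155). Foxa3 rose by 1.69 and 2.01 from 11.9 CPM. Atoh1, the factor that opens the secretory lineage of the gut, did not exceed 0.0348 CPM on average in any group. The calls of Foxa1 and Foxa2 were lost when single replicates were left out (edgeR adjusted p up to 0.0952 and 0.161), and Foxa1 moved from -0.87 to -0.17 with the first technical repeat alone (edgeR adjusted p = 1). At 8 days 0 of 11 tested factors passed, where 0.741% and 1.37% of all genes were called higher and 0.173% and 0.34% lower, too few to read anything from that count.

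Of the gastric mucous and gland genes, the usual company of Tff1 and Tff2, Ctse was lower in Ngn3 cells. Of 9 listed, 8 were in the table and 5 were tested at 2 days, and Ctse alone passed, where 6.56% and 9.43% of all genes were called higher and 5.23% and 8.62% lower. It fell from 114 ± 14.2 CPM to 21.8 ± 2.42 CPM in WT Ngn3 and 26.5 ± 7.69 CPM in 6S-A Ngn3 (SD, n = 3), with log2 fold changes of -2.38 and -2.11. Gkn1, Gkn2, Pgc, Gast and Gif, listed under its older symbol, averaged at most 0.218 CPM in any group. At 8 days Gkn3 was lower with 6S-A Ngn3 (edgeR adjusted p = 0.0375, where 0.34% of all genes were called lower), at 0 to 0.121 CPM against 1.11 to 24.96 CPM in no-color 6S-A cells and 3.28 to 24.3 CPM in no-color WT cells. This call was lost without any single replicate of 6S-A Ngn3 (edgeR adjusted p up to 0.137), with the first technical repeat alone (0.157), against the own no-color group alone (0.0718), with passage 2 alone (0.0549) and without 4 of the 6 no-color replicates in turn (0.0570 to 0.0808). Of the proteins reported to bind trefoil factors or pass on their signal, 7 were tested at 2 days, and F2rl1 and Cd74 fell with both proteins, where 5.23% and 8.62% of all genes were called lower. F2rl1 fell by 0.69 and by 1.09 from 126 CPM. The call of Cd74 in WT Ngn3 was lost when single replicates were left out (edgeR adjusted p up to 0.127). Egfr, the most abundant of them, stood at 202, 190 and 154 CPM and did not pass.

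**Figure D5:**
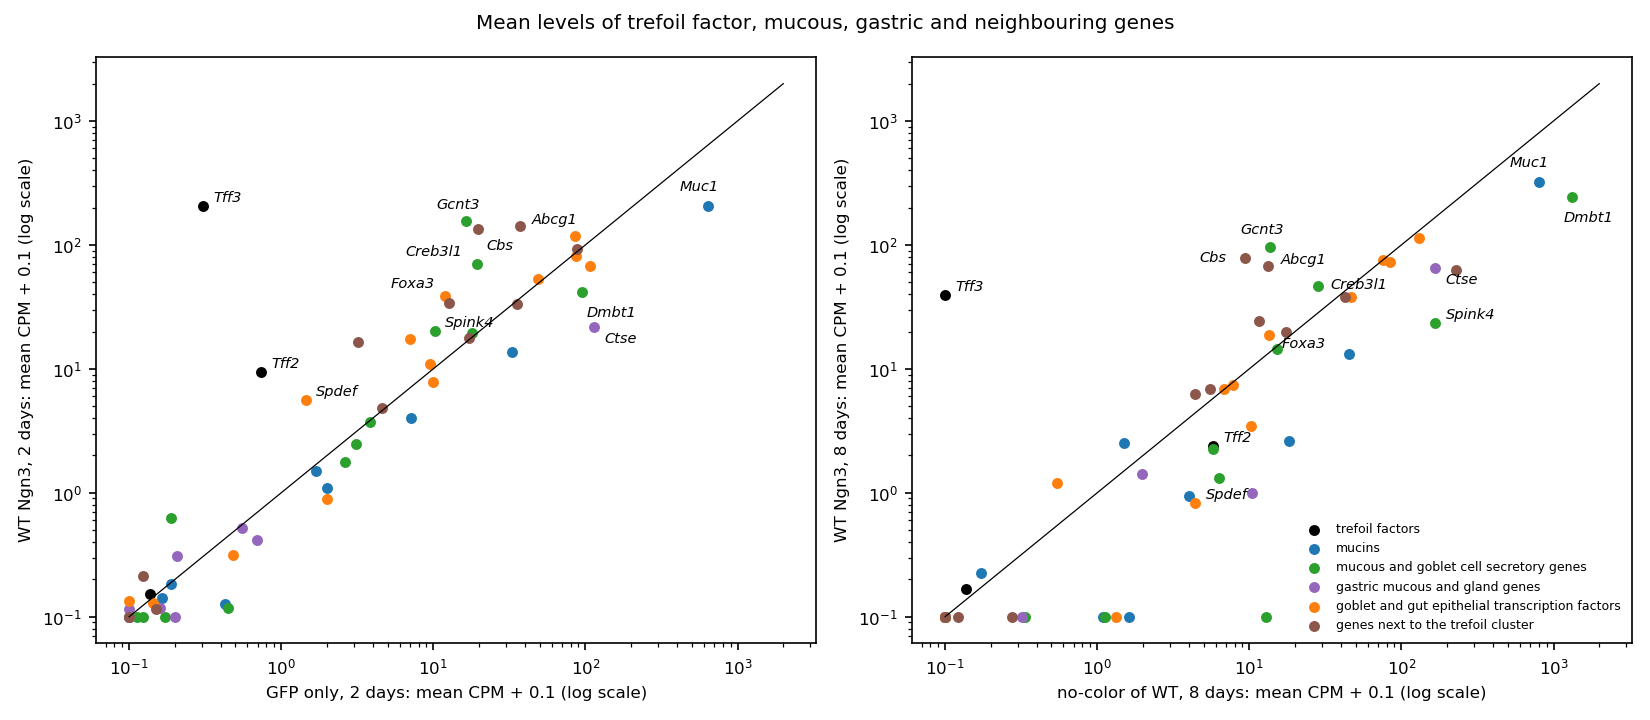
Mean level in WT Ngn3 cells (vertical) against control cells (horizontal), in CPM plus 0.1 on log axes, at 2 days (left, GFP only) and 8 days (right, no-color WT), for the trefoil factors and the gene lists named in the key. The line marks equal levels. Tff3 lies far above the line at both times, at 206 CPM and 39.0 CPM, whereas Muc1, Ctse and Dmbt1 lie below it and Tff2 lies above it at 2 days alone.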

How the data were processed

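Pools of 50 sorted organoid cells were profiled as Smart-seq2 libraries with single-end 50-base reads. The authors aligned the reads with GSNAP to mm10, and deposited counts of reads per Ensembl 81 gene from HTSeq (0.5.3p3), without normalization. Reads not aligned (22.5%), without a gene (14.4%) and ambiguous (8.06%) were left out. The strand setting and the handling of reads with more than 1 alignment are not given in the sources used here. Symbols matched 45143 of 46078 identifiers.

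Libraries with under 30% spike-ins, over 1000000 reads on genes and over 10000 genes were kept, which left out 1 of 77 (WT Ngn3, 8 days, replicate 2 repeat 1, 849278 reads). Libraries held 1501002 to 5632412 reads at 2 days and 2397470 to 9202142 at 8 days. Technical repeats were summed. For each time point, genes with reads in 5 or more of its libraries entered edgeR 4.0.16 in R 4.3.3 (TMM, robust quasi-likelihood test, Benjamini-Hochberg, threshold 0.05), with 23844 genes at 2 days, 19696 at 8 days and 19589 in a joint fit. The 8-day control was the mean of both no-color groups. The scripts were tested on simulated data. Alternatives were scran 1.30.0 and DESeq2 1.42.0 size factors, the DESeq2 test, other filters, all libraries, the first technical repeat alone, 1 of each close pair of repeats, the replicate block, no-color cells of the same protein as sole control, single replicates left out and, chosen after seeing the data, passage 2 alone and the neighbours without Tmprss3. A pseudocount of 1 was used for log2 values, with 0.1 as an alternative. The labels name the replicates as biological without saying whether they are separate animals, so p-values measure the spread between these samples. The members, gene lists and tests were chosen with earlier results of these data known. One gene of the lists is not reported here and was left out of them. Named genes were the members, Neurog3, those most like Tff3, the tested neighbours and, of each list, the most abundant members and those past the threshold with the largest change; Sst and other called list members were added after their values were seen.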

Additional observations from a re-analysis of the deposited data

How the results depend on the processing

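Tff3 carried no test, so only its values are given. Of the tests of Tff2, the calls against GFP only at 2 days held under each alternative run. With the first technical repeat alone, Tff2 in WT Ngn3 against no-color turned from -0.43 to 0.0374. Tff2 between the controls passed the threshold only in DESeq2 (2.29) and without a filter on low counts (2.23). The cause was not tested. With the first technical repeat alone GFP only held 0 reads of Tff3, and no-color WT held 0 throughout, so no value of Tff3 could be given against GFP only in that setting or against no-color WT alone. Against the no-color cells, the ratio of Tff3 reads ran from 540 to 1612 in WT and from 677 to 2043 in 6S-A Ngn3 over the alternatives, and for GFP only from 4.92 to 11.4 in the settings that left it reads (with the first technical repeat alone it held 0 reads against 1 in the no-color cells). Leaving out 1 replicate at a time gave -0.16 to 0.98 for Tff2 in 6S-A over WT Ngn3 at 2 days and 0.46 to 2.12 at 8 days, -0.88 to 0.0316 for Tff2 in WT Ngn3 against no-color, -2.55 to -1.23 (WT) and -1.71 to -0.0688 (6S-A) for Tff2 over time, 9.68 to 10.19 for Tff3 in 6S-A Ngn3 against GFP only and -0.45 to 0.82 for the interaction of Tff3. Genes called higher ranged from 725 to 2257 (WT) and 854 to 3030 (6S-A) at 2 days, where the main counts were 1563 and 2249, and from 37 to 475 and 82 to 664 at 8 days, where they were 146 and 270. Genes called between 6S-A and WT Ngn3 at 2 days were 3, against 97 in DESeq2. All libraries passed at 2 days, so keeping all of them changed nothing there.

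Same-numbered replicates deviated together weakly (r 0.0436 to 0.184 over 9 pairs at 2 days, 0.0690 to 0.478 over 18 pairs at 8 days, -0.0868 to 0.116 over 36 pairs between the days). Pairs of unlike number ran from -0.148 to -0.00149 over 18 pairs at 2 days and from -0.322 to 0.103 over 36 pairs at 8 days. At 2 days the ranges of same and unlike numbers did not overlap. Each sample correlated best with its own number in 18 of 18 comparisons at 2 days and 34 of 36 at 8 days. The data thus hint at a pairing by number, which the main fits did not use, and the replicate block is given as an alternative. At 8 days the number also marks the passage, since replicate 3 of every group was of passage 5 and the others of passage 2. With the replicate block, Tff2 against GFP only was 3.66 and 3.93, Tff3 in 6S-A over WT Ngn3 was 0.13 at 2 days and 0.49 at 8 days, no call of Tff2 changed, and genes called higher were 2257 and 3030 at 2 days and 350 and 472 at 8 days. Genes called between 6S-A and WT Ngn3 at 2 days became 147. With 1 block shared by both days, the change from 2 to 8 days was -1.99 (WT) and -0.59 (6S-A) for Tff2 and -2.73 and -2.52 for Tff3, and genes called over time became 70 and 242, from 33 and 110, and 533 between the controls, from 265. Depth limits Tff1, at or below 3 reads, and Tff2 at 8 days, with 6 to 132 reads per replicate.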
